A study of Homo sapiens with 6 samples.

Results

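The 10 transcription factor genes described here were followed on 6 arrays: JUN, JUNB and JUND, FOS, FOSB, FOSL1 and FOSL2, ATF3, EGR1 and MYC. They were chosen by gene symbol as subunits of the dimeric factor AP-1 and as immediate early factors. Each of the 10 had 1 probe set in the array annotation, out of 18417 genes with a probe set of 1 symbol. All 10 passed the filter on low signal, which 13808 genes passed, and none read below the filter level, a log2 value of 5.80, on any array.

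The arrays came from 3 established human lines of uveal melanoma, a tumour of the pigment cells of the eye: 92.1, Mel 270 and Mel 290. In the control condition a line was kept without other cells in a serum-free medium for 64 h. In the co-culture condition it was kept for 64 h below a porous insert (0.4 µm) holding 1500000 T cells per well in 3 ml, taken from healthy volunteers and activated with beads carrying CD3 and CD28 antibodies. There was 1 array per line and condition, so the lines are the 3 replicates and no p-value below reflects how repeat cultures of a line would vary. Per the labels' protocols 80000 cells were plated of 92.1 and 100000 of the other lines. Mel 290 was confluent when the serum was withdrawn and the other lines were not quite so.

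Against melanocyte markers the lines differed. PMEL, MLANA, TYR and TYRP1, which encode melanosome proteins, read at least 9.39 on all 4 arrays of 92.1 and Mel 270 and at most 6.10 on both arrays of Mel 290, where SOX10 read 6.84 alone and 7.25 in co-culture. MITF, the lineage regulator, read 8.96 alone and 8.16 in co-culture in Mel 290. That was lower than in 92.1 (11.01 and 10.22) and Mel 270 (11.03 and 8.93), though above the filter level. The median difference of 6 melanocyte markers in co-culture was -0.41, with MITF (-1.23 ± 0.75) and TYR (-1.27 ± 1.01) lower in all 3 lines and neither past the adjusted threshold in limma. Of 9 T cell markers 7 read below the filter level on every array, CD3D, CD3E, CD3G and PTPRC among them. CD7 (8.12 to 8.50) and LCK (5.96 to 6.46) read above it on every array. The summed linear signal of all 9 ran from 580 to 650 alone and from 579 to 715 in co-culture. Monocyte and macrophage markers, 5 in all, summed to 1005 to 2543 alone and 1523 to 3678 in co-culture, mostly through CD68, which tumour cells also express. The part of these signals in the values below was not tested. Since these are bulk samples, fewer cells of a type and less RNA per cell cannot be told apart.

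AP-1 is a pair of leucine zipper proteins, either 2 of the JUN family or a JUN protein with one of the FOS or ATF families, and it binds the DNA site TGACTCA or the related cAMP response element TGACGTCA. JUN and FOS genes are immediate early genes: they are switched on within minutes of growth factor, cytokine or stress signals by transcription factors already present in the cell, and kinases of the ERK, JNK and p38 pathways raise both their transcription and the activity of their proteins. In melanoma cells AP-1 subunits are known from studies of invasion and of the loss of pigment cell identity, while MYC drives ribosome production and cell growth.

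The upstream windows of 4 of these genes are printed to set genes of unlike readout side by side: JUN, JUNB and ATF3 were higher in co-culture in each line, and EGR1 was not. Each is the 250 bases before a gene start of RefSeq (GRCh38.p14), read 5′ to 3′ on the gene's strand. Capitals mark matches to the motifs named after the sequences. JUN lies at chr1:58784048-58784297 on the minus strand, JUNB at chr19:12791236-12791485, ATF3 (the first of 2 starts in the table) at chr1:212565157-212565406 and EGR1 at chr5:138465229-138465478, these 3 on the plus strand.
JUN: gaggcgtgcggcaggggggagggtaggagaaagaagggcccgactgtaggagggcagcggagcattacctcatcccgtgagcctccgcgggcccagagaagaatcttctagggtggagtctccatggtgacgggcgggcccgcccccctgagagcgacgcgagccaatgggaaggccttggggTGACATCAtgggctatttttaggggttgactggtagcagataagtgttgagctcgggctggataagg
ATF3: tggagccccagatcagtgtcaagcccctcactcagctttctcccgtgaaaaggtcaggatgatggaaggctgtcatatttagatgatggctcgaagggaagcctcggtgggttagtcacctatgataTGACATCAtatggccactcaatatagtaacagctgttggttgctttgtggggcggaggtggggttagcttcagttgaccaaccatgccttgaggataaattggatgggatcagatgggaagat
JUNB: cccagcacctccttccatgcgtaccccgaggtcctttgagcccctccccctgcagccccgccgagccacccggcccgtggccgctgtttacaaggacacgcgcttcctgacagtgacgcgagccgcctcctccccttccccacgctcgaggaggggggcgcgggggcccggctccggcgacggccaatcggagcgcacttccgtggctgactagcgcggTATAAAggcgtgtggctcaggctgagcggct
EGR1: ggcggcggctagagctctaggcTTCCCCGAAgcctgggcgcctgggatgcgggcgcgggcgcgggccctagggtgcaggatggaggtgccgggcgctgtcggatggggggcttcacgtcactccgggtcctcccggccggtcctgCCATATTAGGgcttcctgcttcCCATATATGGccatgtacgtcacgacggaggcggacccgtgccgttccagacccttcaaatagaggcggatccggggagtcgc

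Both strands of the 250 bases were searched for 7 motifs in 35116 windows. The letters TGACATCA, a variant of the cAMP response element known from the JUN promoter, stood 67 to 60 bases before the JUN start and 123 to 116 bases before the first ATF3 start. They were in 2.37% of all windows. The TATA box, searched as TATAAA, stood 31 to 26 bases before the JUNB start, at a like place before FOS and FOSB, and 230 to 225 bases before the second ATF3 start, and 10.7% of all windows held it. EGR1 held 2 copies of the CArG box, which serum response factor binds (1.16% of windows), and a match to TTCNNNGAA, the GAS element that STAT factors bind (6.57%). TGACGTCA was found before JUND (1.65%). The AP-1 site, searched as TGACTCA and its reverse complement TGAGTCA (4.2%), and the kappaB motif (9.96%) were in no window of the 8 genes that the table held. FOSL1 and MYC were not among them. A match is a description of letters and shows no binding in these cells.

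The first comparison asked how the signal of the factors differed between co-culture and growth alone in the same line. JUNB, JUN and ATF3 were higher in co-culture by a mean of about 3-fold, FOSL2 was higher in 92.1 and Mel 270 and nearly level in Mel 290, and MYC was lower in each line. None of the 10 passed an adjusted p of 0.05 in limma over all tested genes, where 0.449% of genes passed. At an unadjusted p under 0.05 there were 6: JUN, JUNB, JUND, ATF3 and FOSL2 higher and MYC lower, against 7.02% of all tested genes higher and 13% lower. Differences are co-culture minus alone on the log2 scale, with the mean ± SD over 3 lines. The median of the 10 mean differences was 0.58, beside -0.04 over all tested genes.

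**Figure D1:**
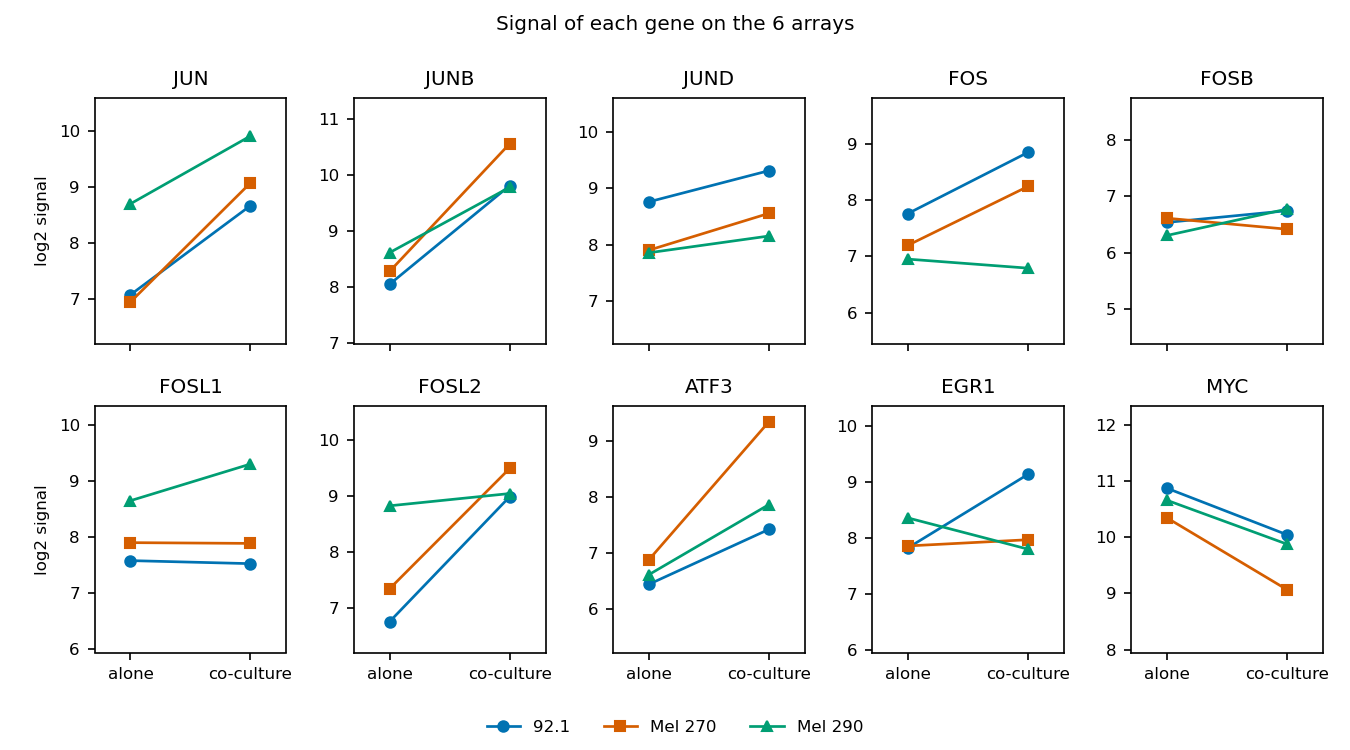
Log2 signal (vertical axis, each panel spanning the same number of log2 units) of the 10 genes on the arrays grown alone and in co-culture, with 1 line joining the 2 arrays of each cell line. JUN and JUNB slope upward in all 3 lines, FOSL2 in 92.1 and Mel 270 meets the level of Mel 290, and MYC slopes downward in all 3.

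Among the JUN family, JUN encodes c-Jun, the subunit that JNK phosphorylates. JUN (probe set 7916609) read 7.08 in 92.1, 6.95 in Mel 270 and 8.70 in Mel 290 alone, and 8.67, 9.08 and 9.91 in co-culture. The arrays of the conditions overlapped slightly, because Mel 290 alone was as high as 92.1 in co-culture, yet each line was at least 2-fold higher in co-culture. The difference was 1.64 ± 0.46 (SD, n = 3 lines; 3.12-fold), with a 95% interval from limma of 1.12 to 2.16 and an adjusted p of 0.065.

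JUNB encodes the family member that often restrains c-Jun and that cytokines induce. JUNB (probe set 8026047) read 8.05, 8.28 and 8.62 alone in 92.1, Mel 270 and Mel 290, and 9.81, 10.56 and 9.78 in co-culture. Every co-culture array lay above every array grown alone. The difference was 1.73 ± 0.56 (3.32-fold, 95% interval 1.14 to 2.33, limma adjusted p = 0.067). JUN and JUNB were the 2 of the 10 that were at least 2-fold higher in all 3 lines, which 0.898% of tested genes were.

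JUND, the member that most cells express steadily, differed less. JUND (probe set 8035445) read 8.76, 7.90 and 7.85 alone and 9.32, 8.55 and 8.15 in co-culture, in the same order of lines. The conditions overlapped, since 92.1 alone was above both Mel lines in co-culture. The differences of 0.56, 0.66 and 0.30 lay close together, with a mean of 0.50 ± 0.18 (95% interval 0.15 to 0.85, limma adjusted p = 0.14).

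The FOS family, whose proteins bind DNA only with a partner such as JUN, was split. FOSL2, which encodes Fra-2, read 6.76 in 92.1, 7.35 in Mel 270 and 8.83 in Mel 290 alone, and 8.99, 9.49 and 9.05 in co-culture (probe set 8041048). The arrays of the conditions did not overlap, but Mel 290 grown alone stood only just below the co-cultures. The 3 lines were 2.07 apart alone and 0.50 apart in co-culture. The difference was 2.23 in 92.1 (4.68-fold), 2.14 in Mel 270 (4.42-fold) and 0.22 in Mel 290 (1.16-fold). Its mean of 1.53 ± 1.14 had a limma adjusted p of 0.15. Without Mel 290 the mean was 2.19 (limma adjusted p = 0.041). That fit left out the line where FOSL2 differed least, so its pass adds no support for a difference over the lines.

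FOS, which encodes c-Fos, the classic immediate early partner of c-Jun, read 7.77, 7.20 and 6.95 alone and 8.86, 8.25 and 6.79 in co-culture (probe set 7975779). It was 2.13-fold higher in 92.1 and 2.07-fold higher in Mel 270, and it differed by -0.16 in Mel 290, so the conditions overlapped. The spread between lines was 0.81 alone and 2.06 in co-culture. The mean difference was 0.66 ± 0.71 (95% interval -0.06 to 1.38, limma adjusted p = 0.29).

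FOSL1 and FOSB did not separate the conditions. FOSL1, which encodes Fra-1, a subunit known from invasive tumour cells, read 7.58, 7.90 and 8.65 alone and 7.53, 7.89 and 9.30 in co-culture (probe set 7949532). It was level in 92.1 and Mel 270, at -0.05 and -0.01, and 0.65 higher in Mel 290, where it was already highest. FOSB read 6.54, 6.61 and 6.31 alone and 6.75, 6.42 and 6.78 in co-culture (probe set 8029693), all within 1 log2 unit of the filter. The mean differences were 0.20 ± 0.40 for FOSL1 (95% interval -0.28 to 0.67) and 0.16 ± 0.34 for FOSB (95% interval -0.27 to 0.60), with limma adjusted p of 0.64 and 0.68. These intervals leave room for changes of about 1.5-fold upward.

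ATF3 encodes a stress-induced partner of the JUN proteins that often represses transcription. ATF3 (probe set 7909610) read 6.43, 6.87 and 6.61 alone in 92.1, Mel 270 and Mel 290, and 7.41, 9.33 and 7.86 in co-culture. The lines were close together alone (0.44 apart) and 1.92 apart in co-culture, with Mel 270 highest. The difference was 0.98 in 92.1, 2.46 in Mel 270 (5.50-fold) and 1.25 in Mel 290, with a mean of 1.56 ± 0.79 (95% interval 0.77 to 2.35, limma adjusted p = 0.094). No array in co-culture was as low as any grown alone.

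EGR1, a zinc finger factor that serum response factor induces downstream of ERK, went different ways. EGR1 (probe set 8108370) read 7.83, 7.86 and 8.36 alone and 9.14, 7.98 and 7.81 in co-culture. It was 2.48-fold higher in 92.1, nearly level in Mel 270 (0.11) and lower in Mel 290 (-0.56), and the conditions overlapped. The mean of 0.29 ± 0.95 was smaller than the spread between lines (95% interval -0.64 to 1.21, limma adjusted p = 0.74), and without 92.1 it was -0.22.

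MYC was the 1 factor of the 10 that was lower in all 3 lines. MYC (probe set 8148317) read 10.88, 10.35 and 10.66 alone and 10.05, 9.07 and 9.88 in co-culture. Every co-culture array lay below every array grown alone, and Mel 270 differed most. The difference was -0.96 ± 0.27, which is 1.95-fold lower (95% interval -1.36 to -0.57, limma adjusted p = 0.078). In each line MYC stood among the 661 lowest differences of the 13808 tested genes.

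Counted together, the conditions did not overlap for 4 of the 10 factors, JUNB, ATF3 and FOSL2 upward and MYC downward, beside 4.03% of tested genes upward and 5.96% downward. The difference had the same sign in all 3 lines for 6 factors: 5 were higher, which 16.2% of tested genes were, and 1 was lower, which 25.5% were. Within a line, with 1 array per condition and no replicate check, 5 factors were at least 2-fold higher in 92.1 (FOS, FOSL2, JUN, JUNB and EGR1; 3.63% of tested genes) and none was 2-fold lower (2.71%). In Mel 270, 5 were higher (FOS, FOSL2, JUN, JUNB and ATF3; 5.29%) and MYC was lower (4.52%). In Mel 290, 3 were higher (JUN, JUNB and ATF3; 2.07%) and none was lower (2.3%). Ranked from the highest difference among 13808 genes, JUN came 253rd in 92.1, 201st in Mel 270 and 214th in Mel 290, and JUNB came 209th, 178th and 226th.

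**Figure D2:**
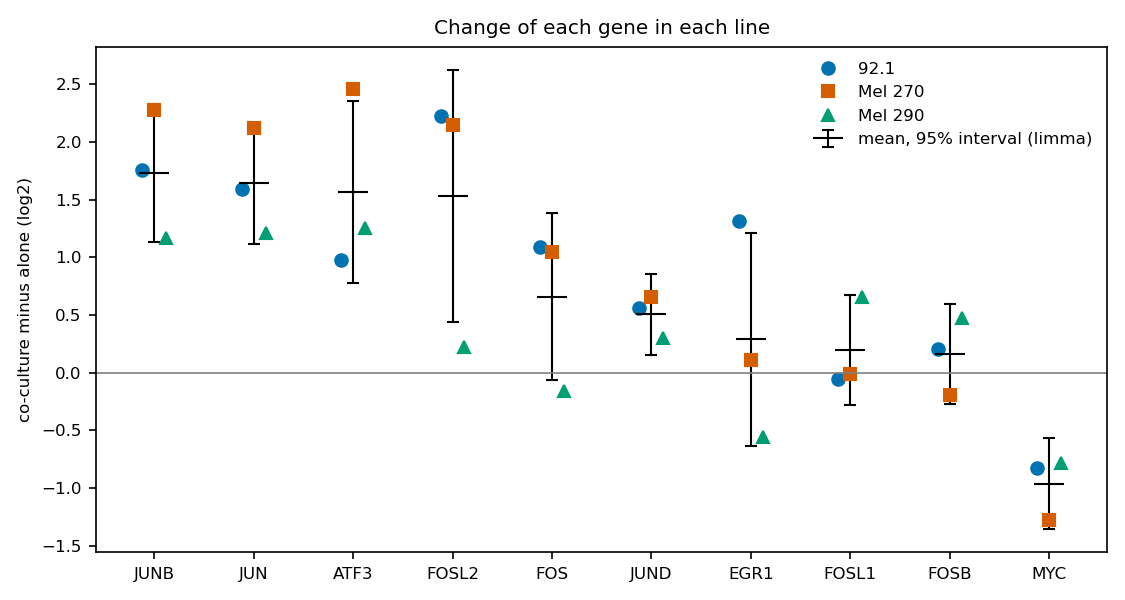
Co-culture minus alone on the log2 scale (vertical axis) for the 10 genes, ordered by their mean. Coloured symbols are the 3 lines, and the black dash and bar are the mean and the 95% interval from limma. The 3 symbols of JUNB, JUN and ATF3 all sit near or above 1, FOSL2 and FOS have Mel 290 apart near 0, and all 3 symbols of MYC lie between -1.28 and -0.78.

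The second comparison set the levels of the lines against each other over both conditions, each line minus the mean of the other lines in the same limma fit. Where lines responded unequally, that adds to the error of this fit, which has no repeat culture to draw on. Mel 290 held more JUN and FOSL1 and less FOS and JUND than the mean of the pigmented lines. Against the mean of its own other lines, 92.1 held more JUND and less FOSL1. In Mel 290, 4 of the 10 factors passed, where 26.2% of tested genes did. In 92.1, 2 passed (15.9% of tested genes), and in Mel 270 none passed (14.4%), where MYC, ATF3 and JUN had unadjusted p of 0.0099, 0.025 and 0.044 in limma.

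JUN averaged 9.31 over both arrays of Mel 290 and 7.95 over the arrays of the other lines, a difference of 1.36 (SE 0.22, limma adjusted p = 0.013). FOSL1 averaged 8.98 in Mel 290 against 7.72, a difference of 1.25 (SE 0.20, adjusted p = 0.013 in limma). The order of FOSL1 was Mel 290, Mel 270 and 92.1 in both conditions, and 92.1 lay 0.88 below the mean of the others (difference -0.88, limma adjusted p = 0.044). As FOSL1 averaged 7.55 in 92.1 and 7.89 in Mel 270, that difference came largely from the level of Mel 290. FOS ran the other way: it averaged 6.87 in Mel 290 against 8.02, a difference of -1.14 (SE 0.30, limma adjusted p = 0.047). That call did not hold with quantile normalization (adjusted p = 0.052), with cyclic loess (0.062) or with no filter (0.053). In co-culture FOS read 6.79 in Mel 290, 8.25 in Mel 270 and 8.86 in 92.1. Alone it read 6.95, 7.20 and 7.77 in the same order, so the gap was wider in co-culture. JUND averaged 9.04 in 92.1 against 8.11 (difference 0.92, limma adjusted p = 0.020), and 8.002 in Mel 290 against 8.63 (difference -0.63, limma adjusted p = 0.033). Grown alone, JUND was nearly equal in Mel 290 (7.85) and Mel 270 (7.90), so the lower mean of Mel 290 there came from the level of 92.1.

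None of the remaining factors passed the adjusted threshold between lines in this fit. In Mel 270 ATF3 was 1.02 higher than in the others (95% interval 0.19 to 1.86, limma adjusted p = 0.10). MYC differed there by -0.66 (95% interval -1.08 to -0.24, limma adjusted p = 0.059). The spread of JUNB over the 3 lines was 0.56 alone and 0.78 in co-culture, that of MYC was 0.53 and 0.98, and that of EGR1 was 0.53 and 1.33. FOSL2 was 0.79 higher in Mel 290 than in the others with a 95% interval of -0.37 to 1.95, since the gap seen alone was not there in co-culture. The confluence of Mel 290 at the change of medium goes with these levels, and its part was not tested.

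**Figure D3:**
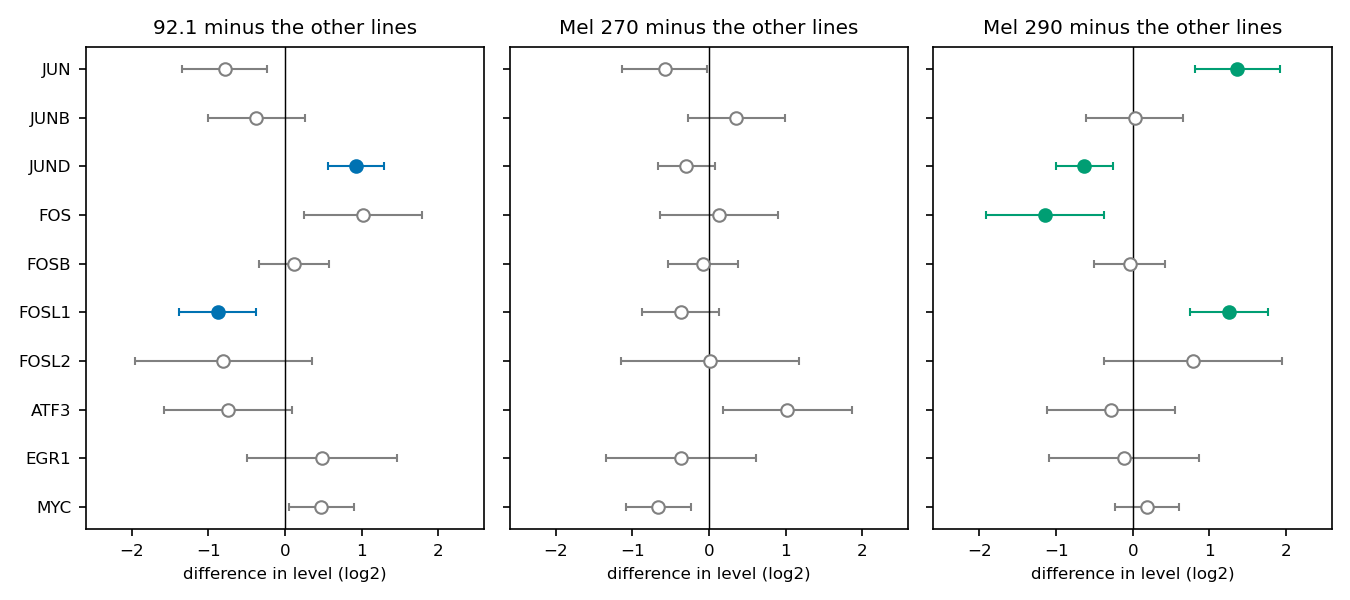
Each line minus the mean of the other lines on the log2 scale (horizontal axis) for the 10 genes over both conditions, with 95% intervals from limma. Filled symbols passed an adjusted p of 0.05 over all tested genes: JUND and FOSL1 in 92.1, none in Mel 270, and JUN, JUND, FOS and FOSL1 in Mel 290.

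Other leucine zipper relatives of AP-1 were read for the same arrays. Of 12 listed, 10 were measured and tested, none passed the adjusted threshold in limma, and 2 were higher and none lower at an unadjusted p under 0.05, beside 7.02% and 13% of all tested genes. Their median difference was 0.24. These 2 were MAFF, a small MAF protein without an activation domain, and BATF2, an interferon-inducible partner of JUN proteins. MAFF read 7.24, 6.68 and 7.75 alone and 8.97, 8.93 and 8.62 in co-culture (1.62 ± 0.69, adjusted p = 0.083). BATF2 read 6.94, 6.92 and 6.99 alone and 9.15, 8.31 and 7.74 in co-culture (1.45 ± 0.74, adjusted p = 0.095). MAF was 1.95 higher in 92.1 and differed by -0.14 and 0.32 in Mel 270 and Mel 290. BATF3 differed by 0.43 ± 0.40.

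Of 31 other immediate early genes 29 were tested, and none passed the adjusted threshold in limma. At an unadjusted p under 0.05, 10 were higher and none was lower, beside 7.02% and 13% of all tested genes. In all 3 lines 12 were higher, beside 16.2% of tested genes, and the median difference was 0.34. KLF4, counted in the 10 and in the 12, read below the filter level on every array grown alone. It passed the filter through its co-culture arrays, so its direction adds no support. NR4A2, counted in both as well, was below the filter level in Mel 290 alone. IER3, a survival gene of the NF-kappaB response, read 7.86, 9.52 and 10.19 alone and 9.55, 12.66 and 11.84 in co-culture (2.16 ± 0.85, adjusted p = 0.075). NR4A2, an orphan nuclear receptor, read 7.07, 6.78 and 5.48 alone and 7.84, 9.75 and 7.15 in co-culture (1.80 ± 1.10). ZFP36, whose protein degrades cytokine mRNAs, read 6.70, 6.50 and 7.51 alone and 8.99, 8.70 and 8.38 in co-culture (1.79 ± 0.79, adjusted p = 0.083). PPP1R15A, which restores translation after stress, differed by 1.26 ± 0.69. IER3 passed in limma without Mel 270 (1.67, adjusted p = 0.026) and ZFP36 without Mel 290 (2.25, adjusted p = 0.039). Each of these fits left out the line furthest from the others for that gene, so the passes add no support.

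The kinases and ternary complex factors upstream of these genes were mostly level. Of 24 listed, 20 were tested with a median difference of 0.13. None passed in limma after adjustment, and 2 were higher and 1 was lower at an unadjusted p under 0.05, which is near the share of all tested genes higher (7.02%) and below that lower (13%). MAP3K8, a kinase that feeds ERK from NF-kappaB signals, read 6.47, 6.69 and 7.14 alone and 8.01, 8.90 and 7.42 in co-culture (1.35 ± 0.98). MAP2K6, which activates p38, read 7.11, 7.57 and 5.20 alone and 5.26, 5.11 and 5.13 in co-culture, so it lay below the filter in every co-culture and in Mel 290 alone. ELK4 and MAP3K7 differed by 0.38 ± 0.11 and 0.31 ± 0.27.

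Of 20 genes known as AP-1 targets 17 were tested, with a median difference of 0.20, beside -0.04 over all tested genes. At an unadjusted p under 0.05, 4 were higher and none was lower, beside 7.02% and 13% of all tested genes. In all 3 lines 7 were higher and 1 was lower, beside 16.2% and 25.5%. MMP1 and LIF, both among the 7, read below the filter level on every array of 92.1 and Mel 270 and passed the filter through Mel 290. IL6, also among the 7, read below it on both arrays of 92.1. The signs of these genes in those lines carry little weight, and LIF and IL6 were also among the 4. After adjustment 1 was called, beside 0.449% of all tested genes. CXCL8, the neutrophil attractant, passed in limma: it read 5.98, 6.40 and 6.50 alone and 11.17, 11.93 and 12.25 in co-culture and rose by 5.49 ± 0.28 (adjusted p = 0.0029). The cytokine IL6 passed as well without 92.1 (4.31, limma adjusted p = 0.041). That fit left out the line where IL6 differed least, so the pass adds no support. IL6 read 5.39, 5.19 and 5.77 alone and 5.78, 8.67 and 10.91 in co-culture. It was below the filter level on 4 arrays and passed the filter through the co-cultures of Mel 270 and Mel 290, so the size of its difference is imprecise. Single lines stood apart for 4 targets chosen after their values were seen. MMP1, a collagenase, read 8.07 alone and 11.78 in co-culture in Mel 290, and at most 4.78 on the arrays of the other lines. FST, the activin inhibitor follistatin, was 16.0-fold higher in Mel 290 and 1.51-fold higher in 92.1, and read 6.51 alone and 6.08 in co-culture in Mel 270. SPP1, which encodes osteopontin, read 5.70 alone and 9.81 in co-culture in Mel 270, 8.15 and 5.70 in Mel 290, and below the filter level on both arrays of 92.1. PTGS2, the inducible cyclooxygenase, was not tested for its low mean. It read 4.33 alone and 8.58 in co-culture in 92.1 and at most 4.36 in the other lines. These differences between lines had no test, since each rested on 1 array per condition.

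Around MYC, a list of factors of the MYC and MAX network and a list of MYC targets were read apart. The first, labelled MYC partners in the figure, is not limited to proteins that pair with MYC itself. Of its 10 genes 9 were tested, with a median difference of 0.02 and none past the adjusted threshold in limma. MAX, with which MYC binds DNA, was 0.48 ± 0.10 higher and was the 1 gene there past an unadjusted p of 0.05. MLX, MGA and MXD3 differed by -0.27, -0.27 and -0.25. Of 22 MYC targets, mostly genes of ribosome and nucleotide synthesis, 18 were tested and none passed the adjusted threshold. At an unadjusted p under 0.05, 12 of them were lower and none was higher, beside 13% of all tested genes lower and 7.02% higher. In all 3 lines 15 were lower, beside 25.5% of tested genes, and their median difference was -0.65, beside -0.04 over all tested genes. CCND2, 1 of the 15, read below the filter level on every array of 92.1 and Mel 270, so its sign there carries little weight.

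POLR1B, a subunit of RNA polymerase I, read 8.65, 8.67 and 8.62 alone and 7.56, 6.79 and 7.99 in co-culture (-1.20 ± 0.64, limma adjusted p = 0.11). CAD, which starts pyrimidine synthesis, differed by -0.88 ± 0.26, NOP16, a nucleolar protein gene, by -0.87 ± 0.19, and SRM, which makes spermidine, by -0.81 ± 0.34. In Mel 270, where MYC was 2.43-fold lower, POLR1B was also furthest apart (-1.89), whereas CAD was furthest apart in Mel 290 (-1.09).

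**Figure D4:**
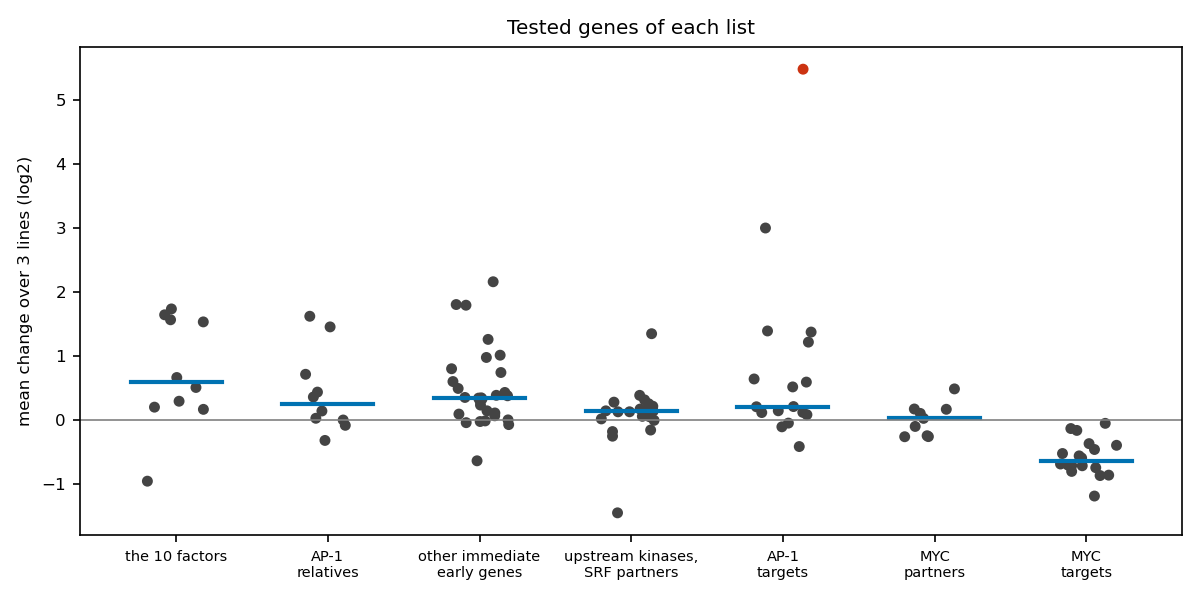
Mean difference over 3 lines on the log2 scale (vertical axis) of each tested gene in the 10 factors and in 6 related lists, with points spread sideways for legibility and a blue dash at each list's median. CXCL8, in red, is the 1 gene past an adjusted p of 0.05, and the MYC targets have a median of -0.65.

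For each factor the 2 genes with the highest Pearson r over the 6 arrays were looked up among the 4440 tested genes with an SD of at least 0.5. These values are a description: the 6 arrays share 3 lines, and each gene was picked for its high r. JUNB was closest to the NF-kappaB regulators TNFAIP3 (r = 0.993) and BCL3 (0.992), and JUN to GBP3 (0.991) and CASP1 (0.987). ATF3 was closest to RNF19B (0.997) and SHFL (0.988), and FOSL2 to ZNF217 (0.990) and MIR21, a microRNA gene (0.988). FOS was closest to DGKH (0.998) and VXN (0.995), FOSL1 to TMEM158 (0.989) and CHMP4C (0.987), and JUND to STX17 (0.985) and SNORD50A (0.983). MYC was closest to CCNA2 (0.993), which encodes cyclin A2, and KIFC1 (0.989), a mitotic motor. EGR1 was closest to HAPLN3 (0.936) and SLFN12L (0.935), and FOSB, which hardly varied, to HLA-DMB (0.980) and HLA-DPB1 (0.801).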

How the data were processed

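Total RNA of 6 cultures was hybridised to 1-colour arrays. The authors deposited log2 signals per probe set, made with Affymetrix Expression Console 1.2.0.20 per the submitters' processing notes. The sources used here do not state how background, summarization and normalization were handled. Array medians ran from 6.63 to 6.69, so values were used as deposited, and the number of arrays limits the precision. Probe sets with 1 symbol were named through the array annotation and RefSeq (GRCh38.p14) gene IDs (19429 of 19460 matched). The probe set with the highest mean stood for a gene, and genes at or above the 25th percentile of mean level, a log2 value of 5.80, were tested.

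limma 3.58.1 in R 4.3.3 (lmFit, eBayes) compared co-culture with growth alone with cell line as a block (2 residual degrees of freedom, prior worth 3.10), with Benjamini-Hochberg adjustment over 13808 genes. Each line is its own pair: deviations from group means correlated at 0.741 to 0.832 within lines. An exact two-sided permutation within 3 pairs could not go below p = 0.25.

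The factors and gene lists were chosen with earlier results of these data known. Named were all 10 factors and, of each list, the called genes (up to 5) or else the 4 with the largest mean difference. The AP-1 targets IL6, MMP1, FST, SPP1 and PTGS2 were named outside this rule, the last 4 after their values were seen. Alternatives were other normalizations, filters, probe set choices, raised low values, a trended prior, no block, and leaving out each line.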

Additional observations from a re-analysis of the deposited data

Results flagged for a closer look

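For 4 of the 10 factors the sign of the difference was not the same in all 3 lines. Each value rests on 1 array per condition, so the difference between lines was not tested. FOS was 1.09 higher in 92.1 and 1.05 higher in Mel 270, and in Mel 290 the difference was -0.16. For EGR1 the values were 1.31, 0.11 and -0.56 in 92.1, Mel 270 and Mel 290. In the same order they were -0.05, -0.01 and 0.65 for FOSL1, which was level in 92.1 and Mel 270, and 0.21, -0.20 and 0.47 for FOSB.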

How the results depend on the processing

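With no replicate block, 18 genes passed in place of 62, all higher, and none of the 10 factors did, with adjusted p from 0.25 for JUNB to 0.999. With cyclic loess 41 genes passed. Under the filter, normalization, probe set, floor and prior alternatives no tested factor was called in co-culture and none changed its direction. FOSB lay below the filter at the median and was not tested there. Leaving out 1 line at a time called 0 to 1 of the factors (FOSL2 without Mel 290), 0 to 1 of the other immediate early genes and 1 to 2 of the AP-1 targets, and gave means of -0.22 to 0.71 for EGR1 and -0.034 to 0.32 for FOSL1. The adjusted p of JUN over all alternatives ran from 0.055 to 0.77 and that of MYC from 0.065 to 0.72. With 1 array per line and condition, differences in response between lines had no replicate check.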
